A study of Mus musculus with 6 samples.

Results

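The Sox, Fox, Tbx and Gata genes, with the related Zic, Klf, Egr, Gli, Runx, Neurog, Neurod, Hand, Olig, Hes, Hey, Id and Ebf genes, encode transcriptional regulators, many of which direct cell fate. Members were chosen by symbol from the autosomal protein-coding genes of the GENCODE M1 annotation of the mouse assembly mm9, and the rule found 136 genes of 21306. They came from 17 families. The rule also names Tfap2, but GENCODE M1 lists these genes under the older symbol Tcfap2, so none of them is a member. Ide (an insulin-degrading enzyme) and Gatad1, Gatad2a and Gatad2b (GATA zinc finger domain proteins) matched by spelling only, and none of these 4 genes had a peak in any sample.

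The sample titles, the antibody label and the study name the mark as H3K27me3, that is, histone H3 with methyl groups on a lysine of its tail. By these labels it was mapped by ChIP-seq, in which chromatin fragments are pulled down with an antibody and sequenced, in primary mesangial cells of the mouse. Mesangial cells are contractile and hold the capillary loops of the kidney glomerulus together. The extraction protocol in the labels instead describes immunoprecipitation of methylated DNA and the file headers call the libraries gDNA, so the peak lists alone cannot tell whether the peaks reflect H3K27me3 or DNA methylation, and they are called H3K27me3 peaks as labelled. All cells were kept in DMEM with high glucose (25.5 mM) and 20% foetal bovine serum and were used at passages 3 to 6. The 3 Control samples carry that label alone, and the 3 TGF-β1 samples received transforming growth factor β1, a cytokine that drives fibrosis, at 10 ng/ml for 72 h. The comparison asks which of the factor genes carried a peak of the mark without and with TGF-β1. The study calls its samples biological replicates, but the labels give neither a strain nor whether the samples of a group were separate cultures. A p-value here measures the spread between these samples. In a bulk sample, fewer cells with the mark and less of the mark per cell cannot be told apart.

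H3K27me3 is laid down by polycomb repressive complex 2, whose catalytic subunit is Ezh1 or Ezh2, and is bound by polycomb repressive complex 1. In differentiated cells it typically covers the CpG-rich starts of genes for developmental regulators of other lineages, which it keeps silent. Sox factors bend DNA through an HMG box, Fox factors bind through a forkhead domain, Tbx factors through a T-box and Gata factors through zinc fingers. Neurog, Neurod, Hand, Olig, Hes and Hey proteins are basic helix-loop-helix factors, and Id proteins are their inhibitors, which dimerise without binding DNA. In the kidney, Foxd1 marks the stromal progenitors from which mesangial cells come, and Gata3 is needed in mesangial cells themselves.

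Broad peaks had been called separately for every sample, with no control library. The libraries held 24753483 to 25635595 tags, of which 19721434 to 22307716 were left after removal of duplicates, and the lists held 2005 to 2699 peaks for Control and 878 to 1603 for TGF-β1. TGF-β1 sample 2 had the shortest list. A gene was counted as carrying a peak where a peak overlapped its body or the 2 kb upstream of it by at least 1 bp. A gene without a peak is a gene at which nothing passed the caller's threshold at this depth, not a gene shown to lack the mark. Of 10 mesangial marker genes 9 had no peak in any sample, the exception being Gata3 in Control sample 3, and none of 8 housekeeping genes had a peak, while 89.05% of all genes had no peak in any sample. Peaks were found on 0 of 5 endothelial and 0 of 4 leukocyte marker genes and on 1 of 6 tubular ones, Slc12a3. A repressive mark does not show which cell types a culture held.

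Fewer factor genes carried a peak in every TGF-β1 sample than in any Control sample. The Control samples had a peak on 19, 18 and 13 of the 136 genes, and the TGF-β1 samples on 9, 1 and 5. The means were 16.7 ± 3.21 and 5 ± 4 genes (SD, n = 3 each), a log2 ratio of -1.74, so that the TGF-β1 mean was 30% of the Control mean. The length of these genes under peaks was 10.8, 10.9 and 8.45 kb in Control samples and 3.57, 0.299 and 2.20 kb in TGF-β1 samples. These are means of 10.1 ± 1.40 and 2.02 ± 1.64 kb (SD, n = 3 each) with a log2 ratio of -2.31. On both measures the groups did not overlap. They did overlap in the count when only peaks with a fold enrichment of 2 or more were used, with 3, 3 and 4 genes against 4, 0 and 4, and with equal numbers of peaks per sample by highest −log10 q, with 4, 3 and 5 against 4, 1 and 3. For the full lists, the pooled replicate SD was 0.99 log2 units for the count and 0.88 for the length, computed after adding 0.5 to each count and to each length in kb. With 0.5 added to each length in bp instead, the SD for the length was larger, at 1.35. TGF-β1 samples 1 and 2 were the extremes of their group: the log2 ratio of the count was -2.47 without TGF-β1 sample 1 and -1.25 without TGF-β1 sample 2, and that of the length was -3.01 and -1.80.

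The peak lists as a whole were shorter with TGF-β1, so the factor genes were set beside the other genes. All other autosomal protein-coding genes had a log2 ratio of -1.21 for the number with a peak, with 1270, 1258 and 953 genes in Control samples and 632, 319 and 550 in TGF-β1 samples. Their length under peaks was 878, 887 and 545 kb in Control samples and 332, 170 and 268 kb in TGF-β1 samples, a log2 ratio of -1.58. For these genes too, the groups did not overlap on either measure, so the lack of overlap was not particular to the factor genes. In each Control sample a factor gene was more often marked than another gene, with a share 2.33, 2.23 and 2.12 times that of the other genes. In the TGF-β1 samples this ratio was 2.22, 0.488 and 1.42, so TGF-β1 sample 1 lay within the Control range and the other two samples lay below it. The log2 ratio of the factor genes minus that of the other genes was -0.52, less than the pooled replicate SD of 0.60. The size of this value depended on single libraries and on the processing. It was -1.06 without TGF-β1 sample 1 and -0.28 without TGF-β1 sample 2, it was -1.18 with a −log10 q of at least 1, and its sign turned under 2 of the alternatives given in the closing section.

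Homeobox and paired-box genes, the other large class of fate regulators, had peaks on 27, 37 and 21 of 154 genes in Control samples and on 7, 4 and 7 in TGF-β1 samples, a log2 ratio of -2.24. Zfp zinc finger genes were rarely marked, with 6, 7 and 3 of 333 genes in the Control and 5, 1 and 5 in TGF-β1 samples. The 22 genes for polycomb subunits and H3K27 demethylases had 2, 1 and 1 marked genes in the Control and the same numbers in TGF-β1 samples, among them Jarid2, a polycomb repressive complex 2 partner, with a peak in all 6 samples. In each Control sample the share of marked factor genes lay between those of the homeobox and the Zfp genes, as the plot of shares by gene set shows. Differences between these sets were not tested.

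**Figure D1:**
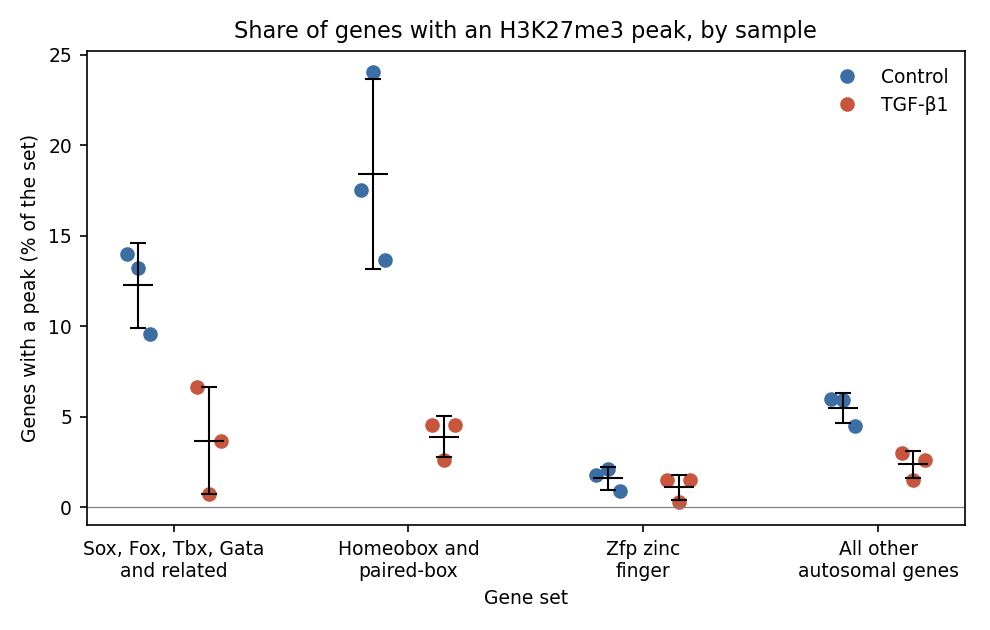
Percent of the genes of each set that overlapped at least 1 H3K27me3 peak, for 3 Control (blue) and 3 TGF-β1 (red) samples; each point is a sample, and the black lines give mean ± SD. Of the Sox, Fox, Tbx, Gata and related genes, 13.97, 13.2 and 9.56% were marked in Control samples and 6.62, 0.735 and 3.68% in TGF-β1 samples.

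Gene by gene, 37 of the 136 factors (27.2%, against 10.95% of all genes) had a peak in at least 1 sample and 99 had none. A peak in at least 1 Control sample was found on 34 genes (25%, against 9.56% of all autosomal protein-coding genes), and in at least 1 TGF-β1 sample on 13 genes (9.56%, against 5.06% of all). At least 2 Control samples marked 10 genes, or 7.35%, against 4.73% of all. Of the 37 genes, 24 had peaks in Control samples alone (17.6% of the members, against 5.89% of all genes). Another 10 had peaks in both groups (7.35%, against 3.67% of all) and 3 in TGF-β1 samples alone (2.21%, against 1.39% of all). Much of this rests on single calls: 22 genes (16.2%, against 4.98% of all) had a peak in exactly 1 sample. For 20 of them (14.7% of the members, against 3.72% of all genes) that sample was a Control sample.

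Agreement of all samples of a group was rarer. A peak in 3 of 3 Control and 0 of 3 TGF-β1 samples was found on Olig3, Gata4 and Foxo6, which are 3 genes or 2.21%, against 0.666% of all genes. None of the 3 kept this pattern when peaks needed a fold enrichment of 2 or more or a −log10 q of at least 1, or with equal numbers of peaks by −log10 q. The opposite pattern, 0 Control and 3 TGF-β1 samples, was found on 0 factor genes and on 0.00939% of all genes. Foxa3 alone had a peak in at least 2 samples of each group (0.735%, against 1.21% of all), Foxn3 alone in at least 2 TGF-β1 and 0 Control samples (0.735%, against 0.127% of all), and no factor gene had a peak in all 6 samples (0.436% of all). The heat map of peak length by gene and sample gives the pattern of 36 of the marked genes. No single gene could pass a threshold of 0.05, since 3 samples against 3 cannot give a 2-sided exact permutation p under 0.1. For Olig3, Gata4 and Foxo6 the pattern by which they were named fixes this p at 0.1, so it is not separate support.

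**Figure D2:**
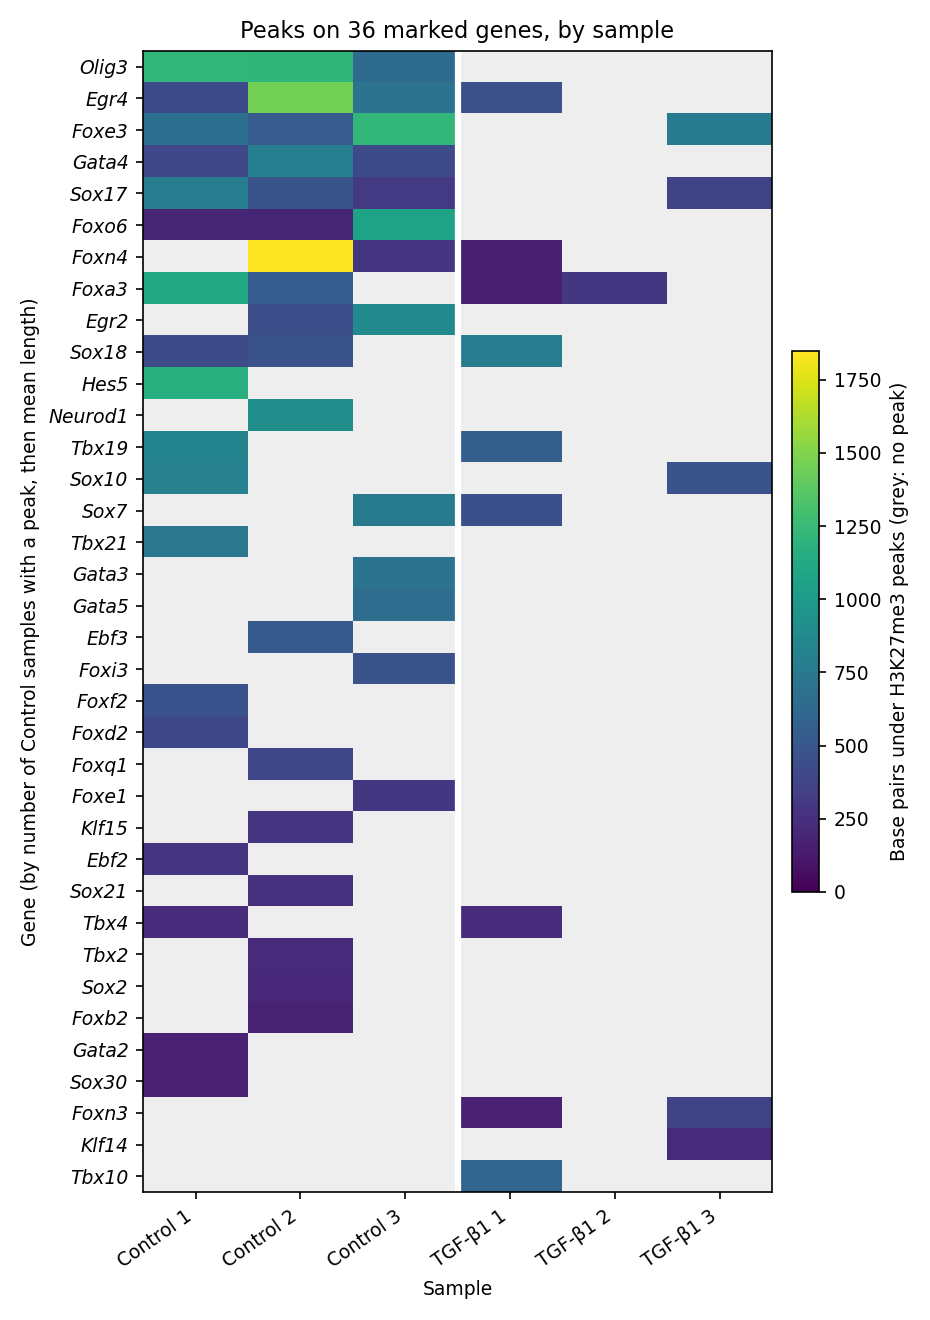
Base pairs under H3K27me3 peaks (colour scale, bp; grey where there was no peak) for 36 of the 37 factor genes with a peak in at least 1 sample, in rows, across the 3 Control and 3 TGF-β1 samples, in columns. Olig3, Gata4 and Foxo6 were marked in all 3 Control samples and no TGF-β1 sample, and in TGF-β1 sample 2 the only marked gene was Foxa3, with 299 bp.

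Olig3, a basic helix-loop-helix factor of dorsal spinal cord and hindbrain progenitors, had the longest mean coverage among the 3 genes. It lies on chromosome 10 from 19076366 to 19078412 on the plus strand. Peaks covered 1220, 1207 and 647 bp in Control samples and 0 bp in each TGF-β1 sample, a Control mean of 1025 ± 327 bp (SD, n = 3; exact permutation p = 0.1). All 3 Control peaks overlapped one another. The peak of Control sample 1 spanned the transcription start site (TSS), from -416 to 803 bp relative to it, while the other two began 522 and 350 bp after it. Fold enrichment over the local background was modest, at 1.83, 1.73 and 1.39, with a −log10 q of 0.67, 0.72 and 1.10.

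Gata4, a zinc finger factor of heart, gonad and gut endoderm, lies on chromosome 14 from 63817759 to 63890529 on the minus strand. Its peaks covered 393, 794 and 408 bp in Control samples and 0 bp in each TGF-β1 sample, a mean of 532 ± 227 bp (SD, n = 3; exact permutation p = 0.1). The Control samples did not mark the same place. In Control samples 1 and 2 the peaks overlapped in coding sequence (CDS), from 30589 and 30204 bp after the annotated gene start, whereas in Control sample 3 the peak lay in an intron, 4336 to 4743 bp after it. With only the 2 kb on either side of the TSS, Gata4 had no peak in 3 Control samples and left the pattern.

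Foxo6, a forkhead factor of the FoxO group, lies on chromosome 4 from 119939684 to 119959954 on the minus strand. Here the Control samples differed in size, with 197, 191 and 1070 bp, against 0 bp in each TGF-β1 sample (mean 486 ± 506 bp, SD, n = 3; exact permutation p = 0.1). The peak in Control sample 3 was the strongest by fold enrichment of all peaks on factor genes, at 8.08 with a −log10 q of 28.6. Those in Control samples 1 and 2 had fold enrichments of 2.92 and 1.38. All 3 overlapped, between 527 and 713 bp after the TSS. Because the peaks of Control samples 1 and 2 were short, Foxo6 left the pattern when at least 200 bp of overlap or peaks of at least 300 bp were required.

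Stretches of the sequence that the Control samples shared are shown for these 3 genes, since they are where the mark was called repeatedly without TGF-β1 and not with it. They are from mm9, on the strand of the gene, with each CG dinucleotide in capitals. The Olig3 stretch is coding, at chr10:19076929-19077128 (plus strand), and was shared by 3 Control samples. The Gata4 stretch is coding, at chr14:63859644-63859843 (minus strand), and was shared by Control samples 1 and 2. The Foxo6 stretch is intronic, at chr4:119959241-119959427 (minus strand), and was shared by 3 Control samples.
Olig3: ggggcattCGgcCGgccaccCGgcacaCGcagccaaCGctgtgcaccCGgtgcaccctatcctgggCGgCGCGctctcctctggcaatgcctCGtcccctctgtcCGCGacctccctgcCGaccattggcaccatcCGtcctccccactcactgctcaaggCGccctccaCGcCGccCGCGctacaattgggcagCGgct
Gata4: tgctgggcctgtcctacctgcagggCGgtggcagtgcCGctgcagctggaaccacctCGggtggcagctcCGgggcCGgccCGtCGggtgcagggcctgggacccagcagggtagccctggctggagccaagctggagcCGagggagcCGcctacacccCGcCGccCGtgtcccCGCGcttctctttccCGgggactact
Foxo6: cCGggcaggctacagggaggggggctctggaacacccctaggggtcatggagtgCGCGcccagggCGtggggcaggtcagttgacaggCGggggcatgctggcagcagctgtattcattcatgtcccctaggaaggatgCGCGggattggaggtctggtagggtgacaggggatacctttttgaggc

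The Olig3 stretch holds 20 CG dinucleotides in 200 bases, an observed to expected CpG ratio of 0.87, and the Gata4 stretch holds 15 in 200, a ratio of 0.56. The Foxo6 stretch holds 7 in 187, a ratio of 0.41. The GC contents were 70.5, 73 and 63.6%. CpG density thus differed between the 3 stretches while GC content was above 60% in each.

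A further 3 genes, named here after their values were seen, were marked in all 3 Control samples and in 1 TGF-β1 sample. With them, 6 members (4.41%) had a peak in 3 of 3 Control samples, against 2.29% of all genes. Egr4, an immediate early zinc finger factor, had 414, 1451 and 702 bp in Control samples and 457, 0 and 0 bp in TGF-β1 samples. Foxe3, a forkhead factor of the lens, had 674, 530 and 1223 bp against 0, 0 and 753 bp. Sox17, the HMG-box factor of endoderm and of endothelium, had 785, 482 and 312 bp against 0, 0 and 377 bp. In each gene the marked TGF-β1 sample reached into the Control range while the other two TGF-β1 samples were at 0. The 2-sided exact permutation p was 0.2 for Egr4, 0.3 for Foxe3 and 0.2 for Sox17. Without TGF-β1 sample 3, both Foxe3 and Sox17 joined the genes with a peak in every Control and no TGF-β1 sample, which then numbered 5. Without TGF-β1 sample 1, Egr4 joined them. These moves were fixed in advance, since the sample left out was the only TGF-β1 sample that marked the gene.

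These 3 genes differed in where the mark lay. On Egr4 the peaks of all 4 samples overlapped within the coding sequence. On Foxe3 all 4 samples overlapped just upstream of and across the TSS, and TGF-β1 sample 3 had a second, separate peak at -1364 to -1050 bp. On Sox17 the peaks of Control samples 2 and 3 overlapped each other, between 2662 and 3180 bp after the TSS, while those of Control sample 1 and TGF-β1 sample 3 overlapped each other further on, between 3677 and 4623 bp. The stretches that the 3 Control samples shared on Egr4 and Foxe3 are shown because they contrast a coding with an upstream location. The Egr4 stretch is coding, at chr6:85462247-85462446 of mm9, and the Foxe3 stretch lies upstream, at -315 to -116 bp from the TSS, at chr4:114598773-114598972. Both are on the minus strand, the strand of the gene, with CG in capitals.
Egr4: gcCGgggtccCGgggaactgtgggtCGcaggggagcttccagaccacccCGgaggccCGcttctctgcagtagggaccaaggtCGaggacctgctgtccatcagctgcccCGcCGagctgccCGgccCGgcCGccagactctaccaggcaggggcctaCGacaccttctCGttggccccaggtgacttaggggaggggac
Foxe3: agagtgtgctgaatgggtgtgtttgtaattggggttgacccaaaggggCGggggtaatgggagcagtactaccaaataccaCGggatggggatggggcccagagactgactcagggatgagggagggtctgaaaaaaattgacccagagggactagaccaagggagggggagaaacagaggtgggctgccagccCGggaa

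The coding stretch of Egr4 holds 13 CG dinucleotides in 200 bases and the upstream stretch of Foxe3 holds 3. Their GC contents are 70 and 56.5%.

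Foxa3, a forkhead factor of liver and gut endoderm, was the only factor gene with peaks in at least 2 samples of each group. It lies on chromosome 7 from 19598631 to 19608887 on the minus strand. Peaks covered 1115, 537 and 0 bp in Control samples and 163, 299 and 0 bp in TGF-β1 samples. The groups overlapped, and sample 3 of each group was at 0 (means 551 ± 558 and 154 ± 150 bp, SD, n = 3 each; exact permutation p = 0.4). There were 2 places. Control samples 1 and 2 shared an intronic peak 2521 to 2953 bp after the TSS that no TGF-β1 sample had. Control sample 1 and TGF-β1 samples 1 and 2 shared 96 bp around the start of the coding sequence, which also lies in the window of the neighbouring gene Sympk, so that peak cannot be assigned to Foxa3 alone. The coding part of the stretch is at chr7:19608735-19608766 of mm9 on the minus strand, and is shown as the only place on these genes that both TGF-β1 samples 1 and 2 marked.
Foxa3: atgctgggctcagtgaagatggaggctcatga

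This stretch of 32 bases holds 0 CG dinucleotides. Foxn3, a forkhead repressor expressed in many tissues, was the only factor gene with a peak in at least 2 TGF-β1 samples and none in the Control samples. Peaks covered 0 bp in each Control sample and 171, 0 and 378 bp in TGF-β1 samples, so TGF-β1 sample 2 was at 0 like the Control samples (mean 183 ± 189 bp, SD, n = 3; exact permutation p = 0.4). Both peaks lay in an intron 40010 to 40387 bp after the TSS, with fold enrichments of 1.55 and 2.21 and a −log10 q of 0.66 and 0.87. The shared stretch is shown because its sequence is unlike the others. It is at chr12:100648083-100648253 of mm9 on the minus strand.
Foxn3: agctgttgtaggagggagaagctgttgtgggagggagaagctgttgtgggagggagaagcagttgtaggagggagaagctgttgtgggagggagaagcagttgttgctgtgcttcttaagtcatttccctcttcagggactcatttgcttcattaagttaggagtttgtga

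The Foxn3 stretch holds 0 CG dinucleotides in 171 bases and opens with a short tandem repeat. At a distance of 19 bases, 63.8% of its bases equal the base further on, the highest share over distances from 5 to 40 bases, or over a shorter range in the shorter stretches. In the other 7 stretches the highest share was 33.9 to 39.8%. How reads map to this repeat was not tested.

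Egr2, Foxf2, Foxa1 and Klf7 were examined because the study names them among the genes with altered H3K27me3 or DNA methylation. It lists Egr2 and Foxa1 for H3K27me3 but Klf7 for DNA methylation, a different mark. Its H3K27me3 peaks were called after the samples of each group were merged, so its calls and the per-sample calls here are not alike. Egr2, the zinc finger factor of hindbrain segments and Schwann cells, had 0, 437 and 884 bp in Control samples and 0 bp in each TGF-β1 sample. Control sample 1 was thus like the TGF-β1 samples. Control sample 2 had a peak of 242 bp from the annotated gene start on, with a fold enrichment of 3.61 and a −log10 q of 5.38, and a second peak that lay within the peak of Control sample 3. Their shared stretch of 195 bases, annotated as intronic, is at chr10:67001915-67002109 of mm9 on the plus strand, and is shown because it is where 2 Control samples coincide on this gene.
Egr2: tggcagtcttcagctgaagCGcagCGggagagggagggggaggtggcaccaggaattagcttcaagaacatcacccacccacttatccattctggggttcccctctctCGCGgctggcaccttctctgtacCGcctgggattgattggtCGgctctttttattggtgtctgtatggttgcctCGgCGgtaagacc

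It holds 8 CG dinucleotides. Foxf2, a forkhead factor of gut and craniofacial mesenchyme, had 468 bp in Control sample 1 and 0 bp in the other 5 samples. Neither Foxa1, a forkhead pioneer factor of endoderm, nor Klf7, a Krüppel-like factor of sensory neurons, had a peak in any sample.

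The remaining genes with peaks in more than 1 sample are named after their values were seen. Foxn4, a forkhead factor of retinal and spinal interneurons, had 0, 1848 and 293 bp in the Control and 163, 0 and 0 bp in TGF-β1 samples, and the peak of Control sample 2, which spanned the TSS, was the longest on any factor gene. Sox18, an endothelial factor of lymphatic development, had 422, 475 and 0 bp against 779, 0 and 0 bp. Tbx19, the pituitary T-box factor, had 831 bp in Control sample 1 and 556 bp in TGF-β1 sample 1, and Tbx4, the hindlimb and lung factor, had 238 and 231 bp in the same samples. Sox7, an endothelial relative of Sox17, had 770 bp in Control sample 3 and 451 bp in TGF-β1 sample 1. Sox10, the factor of neural crest and glia, had 802 bp in Control sample 1 and 474 bp in TGF-β1 sample 3, at places that did not overlap. In all 6 of these genes the groups overlapped. Tbx10 and Klf14 were marked in 1 TGF-β1 sample alone, with 600 bp in TGF-β1 sample 1 and 220 bp in TGF-β1 sample 3.

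The 70 peaks on factor genes were mostly weak, like the peaks on other genes. There were 53 in Control samples and 17 in TGF-β1 samples, with median lengths of 471 and 377 bp and median fold enrichments of 1.73 and 1.82. Peaks on other genes had median fold enrichments of 1.74 to 1.92 in the 6 samples, and 66.2 to 74.6% of them had a −log10 q under 1. On factor genes the −log10 q was under 1 for 53 of the 70 peaks and at least 5 for 9. Of these 9, 4 were the Sox18 peaks, 2 were on Tbx19, and Gata5, Foxo6 and Egr2 had 1 each. The local background implied by pileup and fold enrichment was 55.0 to 63.2 tags for the 4 Sox18 peaks and 58.2 tags for the Gata5 peak, against medians of 2.09 to 4.89 tags for the factor genes' peaks in the 6 samples. Both genes lie on distal chromosome 2, and the part of this background in their high q values was not tested. With a −log10 q of at least 1 the Control samples had 4, 4 and 4 marked factor genes and the TGF-β1 samples 2, 0 and 0, with 0 genes left in the pattern of 3 Control and 0 TGF-β1 samples.

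Where a factor gene was marked more than once, the place usually repeated. Of 15 factor genes with peaks in at least 2 samples, 11 had peaks that overlapped in every pair of samples, 3 in some pairs (Gata4, Foxa3 and Sox17), and 1 in none (Sox10). Over pairs of samples, 20 of 24 within a group and 16 of 21 between groups overlapped. The same counts were not made for other genes, so they do not set the factor genes apart. By position, 33 of 53 Control and 12 of 17 TGF-β1 peaks had their midpoint within 2 kb of the TSS, 10 and 4 covered it, and 36 and 10 touched coding sequence. Several of the marked genes are so short, such as Foxe3 with 0.977 kb and Olig3 with 2.05 kb, that a peak in the window could hardly lie elsewhere. The plot of peak positions shows 9 genes. In all, 9 of the 70 peaks also lay in the window of another gene, such as Pank4 beside Hes5 and Cerkl beside Neurod1.

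**Figure D3:**
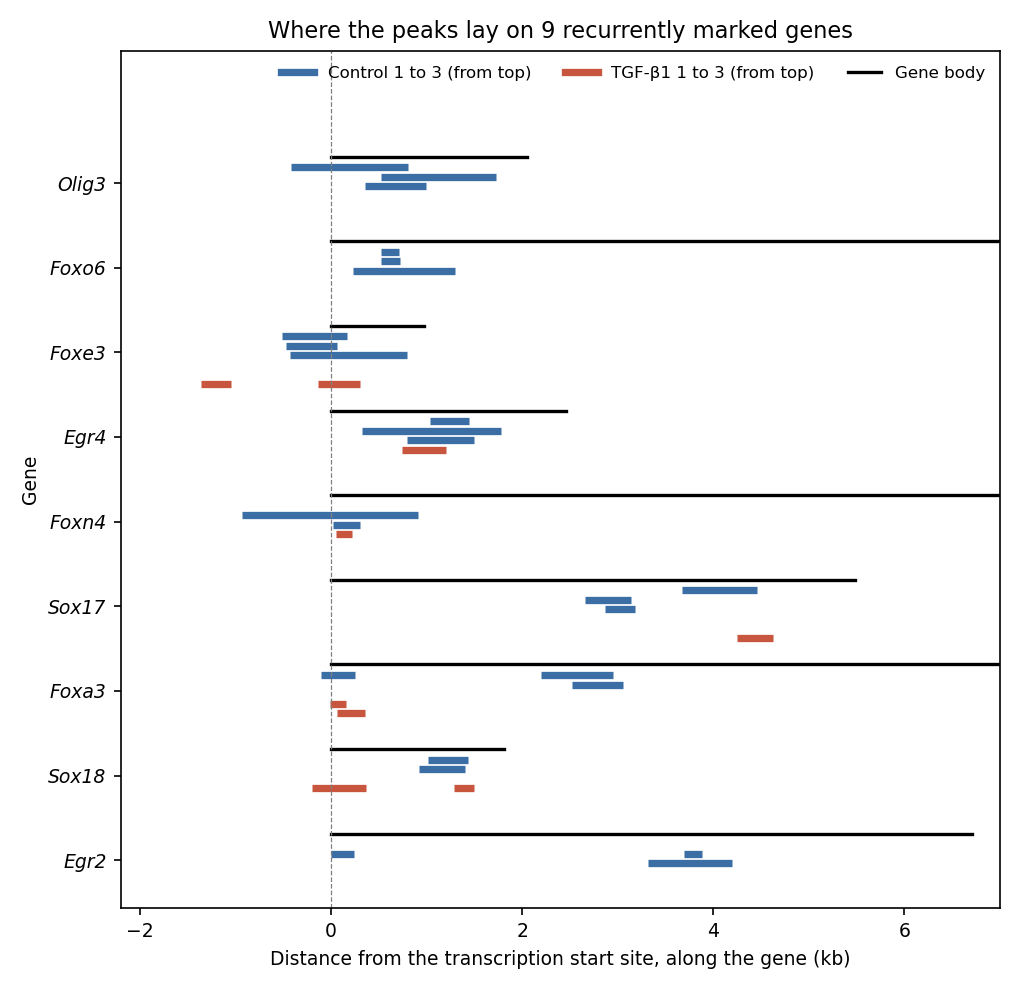
Position of each H3K27me3 peak from the transcription start site (kb, along the direction of the gene) on 9 factor genes; under each gene body (black) the 6 lanes are Control samples 1 to 3 (blue) and TGF-β1 samples 1 to 3 (red), from top to bottom, and gene bodies that run past the right edge are cut there. The 3 Control peaks of Olig3 and of Foxo6 overlapped and no TGF-β1 peak was present, while on Egr4 and Foxn4 the peak of TGF-β1 sample 1 lay where the Control peaks did.

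Families are given against the same shares of all genes, 9.56% for Control and 5.06% for TGF-β1. Of 40 Fox genes 11 had a peak in at least 1 Control sample and 4 in at least 1 TGF-β1 sample, and of 17 Sox genes 7 and 4 did. Tbx genes had 4 and 3 of 12, all 3 in TGF-β1 sample 1. Gata genes had 4 of 8 in the Control samples (Gata2, Gata3, Gata4 and Gata5, or 4 of the 5 members that are GATA factors proper) and 0 in TGF-β1 samples. Egr genes had 2 and 1 of 4, and Ebf genes 2 and 0 of 4. Klf genes, which include many broadly expressed factors, had 1 and 1 of 16 (6.25% each, near the share of all genes), namely Klf15 in Control sample 2 and Klf14 in TGF-β1 sample 3. Single genes were marked in 1 or more Control samples in the Olig (1 of 3), Neurod (1 of 4) and Hes (1 of 6) families, and none in TGF-β1 samples. The bar chart by family shows that no gene of the Gli, Hand, Hey, Id, Neurog, Runx and Zic families had a peak in any sample. These families have 2 to 5 genes each, too few to set a count of 0 apart from the share of all genes, and differences between families were not tested.

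**Figure D4:**
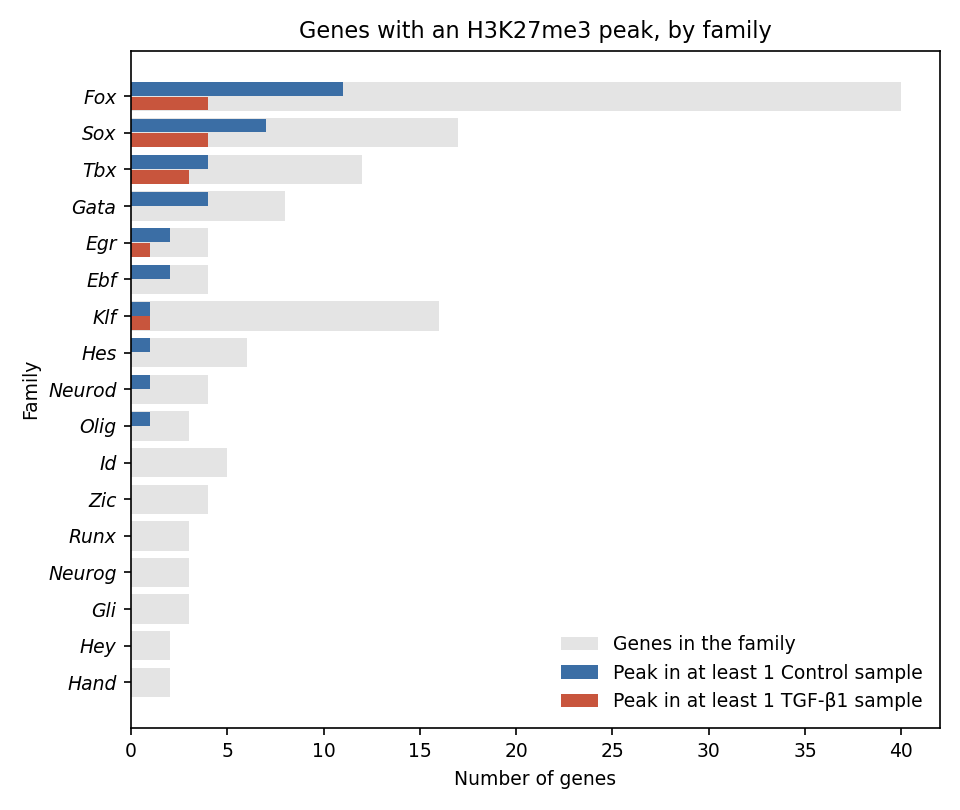
Number of genes in each family (grey bars), with a peak in at least 1 of 3 Control samples (blue) and in at least 1 of 3 TGF-β1 samples (red). The Fox family had 11 and 4 marked genes of 40, the Gata family 4 and 0 of 8, and 7 families had none.

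By developmental role, 106 members fell into lists by the tissue in which they act, and some into more than 1 list. The counts stand against 9.56% of all genes with a peak in at least 1 Control sample and 5.06% in at least 1 TGF-β1 sample, and differences between lists were not tested. Factors of the endoderm and gut had 5 of 9 genes marked in at least 1 Control sample and 2 in at least 1 TGF-β1 sample: Sox17, Gata4, Foxf2, Foxa3 and Gata5, an endocardial and gut GATA factor with 657 bp in Control sample 3. Factors of the nervous system had 9 of 26 and 1. Beside Olig3 and Sox10 these included the pluripotency and neural progenitor factor Sox2, its relative Sox21, Ebf2, Ebf3, Foxb2 and Neurod1, a factor of neurons and pancreatic islets with 910 bp at its TSS. Each of these 6 had a peak in exactly 1 Control sample and in no TGF-β1 sample. Factors of mesoderm, heart and limb had 4 of 19 and 1, with Tbx2, Tbx4, Gata4 and Gata5.

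In the list drawn up for kidney stroma and mesangium, 2 of 11 genes (18.2%) had a Control peak and 0 had a TGF-β1 peak. These were Tbx2, with 219 bp in Control sample 2, and Gata3, with 707 bp in Control sample 3. This list is loose, since it also holds Foxi1, Sox4, Sox9 and Sox11, which are not particular to stroma or mesangium. The stromal factors Foxd1, Foxc1 and Foxc2 had no peak. None of 10 factors of cartilage and bone, such as Sox9, Runx2 and Gli2, had a peak. Of 12 Notch and BMP response genes Hes5, a Notch effector of neural progenitors, had 1164 bp in Control sample 1 and the other 11, the Hey genes and Id1 to Id4 among them, had none. Blood and immune factors had 4 of 14 in the Control samples (Egr2, Gata2, Gata3 and Tbx21, the T-box factor of type 1 helper T cells with 730 bp at its TSS in Control sample 1) and 0 in TGF-β1 samples. Of 29 growth factor response and broadly expressed factors 24 had no peak, and the others were Foxo6, Egr4, Egr2, Klf15 and Foxn3. Another 30 members were in no list, and 12 of these had a peak.

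Many of the factor genes had CpG-rich promoters. A promoter was called CpG-rich where the 1 kb on either side of the TSS had a GC content of at least 0.5 and a CpG ratio of at least 0.6. This held for 87 of the 136 factor genes (64.0%) and for 30.5% of all genes, and median promoter CpG ratios were 0.71 and 0.48. Among CpG-rich promoters, 29.9% of the factor genes and 11.7% of the other genes had a peak in at least 1 Control sample. Among the other promoters the shares were 16.3 and 8.47%. In the TGF-β1 samples, 6.90% of the factor genes with CpG-rich promoters and 14.3% of those with other promoters had a peak, against 5.61 and 4.78% of the other genes. These shares are descriptions, since genes are not replicates, and among CpG-rich promoters the windows searched were shorter for factor genes than for the other genes, with medians of 7.59 and 32.6 kb.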

How the data were processed

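H3K27me3 ChIP-seq peak lists of 6 samples, 3 Control and 3 TGF-β1, were grouped by the treatment label, with replicate numbers from the titles. According to the methods, reads were aligned to mm9 with BWA. MACS 2.1.0.20150731 was then run in broad mode on every sample alone, with q thresholds of 0.01 and 0.1 and no control library, per the file headers. The deposited pileup is a coverage signal in extended tags and was not corrected for library size. Fold enrichment, as deposited, is the ratio of this signal to the local background, and both deposited significance columns, for p and for q, are −log10 values. The headers name the libraries gDNA and the labelled extraction protocol describes immunoprecipitation of methylated DNA, while titles, antibody and study give H3K27me3.

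No peak on an autosome ran past a chromosome end of the mm9 sequence (0 peaks). Duplicate annotation entries of a gene were merged, so that 138 entries became 136 genes. Sequence stretches came from the mm9 genome in the part shared by the named samples, without untranslated bases. The tools were Python 3.11.15 with pandas 2.3.3, numpy 2.4.6 and matplotlib 3.10.9. Base pairs under peaks of a gene were compared with a 2-sided exact permutation test of 6 values. A limma fit was planned for fold enrichment over genes with a peak in all 6 samples, but it was not run because 0 factor genes qualified. Counting was checked on simulated peak lists, where all 200 planted genes were recovered.

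Genes named singly were those with a peak in 3 Control and 0 TGF-β1 samples, in at least 2 samples of each group, or in 0 Control and at least 2 TGF-β1 samples, the 4 genes named by the study, and the 4 that match by spelling. Others are marked as named after their values were seen, and a few genes are not reported here. The members, lists and rules were chosen with earlier results of these data known. Alternatives were other windows, overlaps, peak thresholds and equal numbers of peaks, the removal of each sample in turn and the replicate block. A window of 10 kb on either side, the inclusion of the Tcfap2 genes and the removal of peaks with an implied background, (pileup + 1) / fold enrichment - 1, over 20 tags were added after seeing the data.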

Additional observations from a re-analysis of the deposited data

How the results depend on the processing

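The log2 ratios of marked factor genes and of their length under peaks stayed negative under every alternative run. The single-gene differences of Olig3, Gata4 and Foxo6 were negative in the replicate block and with each sample left out. This sign was fixed in advance, since the genes were chosen for a peak in every Control and no TGF-β1 sample. Where fold enrichment was 2 or more, the log2 ratios of the count and of the length were -0.32 and -0.59. With equal numbers of peaks by highest −log10 q (878 per sample) the count gave -0.59. Relative to other genes the log2 ratio was -1.18 with a −log10 q of at least 1, and it changed direction with 2 kb on either side of the TSS (0.0091) and where fold enrichment was 2 or more (0.39). The number of genes with a peak in 3 Control and 0 TGF-β1 samples was 0 with a −log10 q of at least 5 or of at least 1, where fold enrichment was 2 or more, and with equal numbers by −log10 q. It was 1 (Olig3) with equal numbers of the longest peaks. These alternatives keep fewer peaks, and equal numbers remove most of them from the Control lists. Whether this accounts for the changes was not tested, nor was any other cause.

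When each sample was left out in turn, the count ratio ran from -2.47 to -1.25, the length ratio from -3.01 to -1.80 and the difference from other genes from -1.06 to -0.28. Genes with a peak in every Control and no TGF-β1 sample numbered 3 to 5, and those with the opposite pattern 0 to 1, the 1 being Foxn3 without TGF-β1 sample 2.

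With samples of the same number paired (the replicate block), mean log2 ratios were -1.99 for the count, -2.91 for the length and -0.73 relative to other genes. The exact sign-flip p for Olig3, Gata4 and Foxo6 was 0.25, the smallest that 3 pairs allow, and their pattern fixes it in advance. Deviations from the group means correlated at -0.00069 to 0.013 for same-numbered samples and at -0.013 to 0.0067 for the others, over 2333 genes with a peak, so the numbers were not taken to pair the samples. The alternatives of the limma fit were not run, since no factor gene entered it.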

Other observations

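The genes that the symbol rule missed were read out in the same way. Tcfap2d, 1 of the activating protein 2 family of neural crest and skin regulators, had 1220, 0 and 914 bp under peaks in the Control samples and 483, 772 and 0 bp in the TGF-β1 samples. Tcfap2b had 194 and 370 bp in Control samples 1 and 2, Tcfap2c had 182 and 195 bp in Control samples 1 and 3, and Tcfap2a had 326 bp in Control sample 1. None of these 3 genes had a peak in a TGF-β1 sample, and Tcfap2e had none in any sample. Outside the autosomes, the X-linked genes Foxo4, Foxp3, Foxr2, Gata1, Klf8, Sox3 and Tbx22 had 0 bp in all 6 samples.

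Another 12 factor genes lacked a peak in the window of gene body and 2 kb upstream but had 1 within 10 kb on either side. The share of all genes with such a peak was not computed, so this count is not a result about the factor genes. Foxf1a, a forkhead factor of gut and lung mesenchyme, had such a peak in 3 Control and 0 TGF-β1 samples. Hand2, a basic helix-loop-helix factor of heart and limb, had it in 3 Control and 1 TGF-β1 samples, and Gli1, a transcriptional target and effector of hedgehog signalling, in 3 Control and 2 TGF-β1 samples. Neurod2 and Foxd4 had it in 2 Control and 0 TGF-β1 samples. Foxo3 and Hand1 had it in 1 Control and 1 TGF-β1 samples, Ebf4 in 0 Control and 1 TGF-β1 samples, and the rest in 1 Control and 0 TGF-β1 samples.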
